A study of Mus musculus with 16 samples.

Results

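The 8 genes described here make nicotinamide adenine dinucleotide (NAD) or use it up: Nampt, Naprt, Qprt, Nmnat1, Nmnat3, Nadsyn1, Parp1 and Parp2. They were chosen by name, with earlier results of these data known. Every array probe annotated to them was used, including probes filed under the older symbols Pbef1 (Nampt) and Naprt1 (Naprt). They came to 8 of 18278 genes tested and to 13 of 26375 probes, and all 8 genes and all 13 probes passed the filter on dim probes. RNA came from E14 mESC, a mouse embryonic stem cell line. All cells carried a lentiviral vector that stably expressed a short hairpin RNA (shRNA), and all grew in medium with serum and the factor the labels call leukocyte inhibitory factor. The 4 groups were cells with the Sirt1 hairpin given retinoic acid (sh-SIRT1 RA, n = 6), cells with the control hairpin given retinoic acid (sh-Control RA, n = 4), sh-SIRT1 cells given ethanol as vehicle (sh-SIRT1 vehicle, n = 3) and sh-Control cells given vehicle (sh-Control vehicle, n = 3). Retinoic acid (RA) was given at 20 nM, and both treatments lasted 2 days. Each hairpin stands for the cells that carry it, so that the hairpin and the history of a line cannot be told apart. The design text mentions duplicates without saying which arrays they are, so p-values measure the spread between arrays, which may be partly technical.

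Cells make NAD along 3 routes. In the salvage route NAMPT joins nicotinamide, the product left when NAD is used up, to a phosphoribosyl group to give nicotinamide mononucleotide (NMN). In the Preiss-Handler route NAPRT does the same for nicotinic acid, and in the route from tryptophan QPRT converts quinolinate, so that both yield nicotinic acid mononucleotide. The NMNAT enzymes turn either mononucleotide into a dinucleotide, NMNAT1 in the nucleus and NMNAT3 in mitochondria, and NADSYN1 turns the nicotinic acid form into NAD. PARP1 and PARP2 sense DNA breaks and split NAD to build poly(ADP-ribose) chains, and sirtuins such as SIRT1 split NAD to remove acetyl groups, so both kinds of enzyme draw on the same supply and release nicotinamide.

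A value is the log2 of a probe's processed intensity minus that of the 75th percentile of its array, and is called its level. Between 60.3 and 68.6% of the spots of an array were well above background, and the 75th percentile lay between 684 and 1155 intensity units. Sirt1 followed the labels: its level was 0.92 to 1.59 on the 6 sh-SIRT1 RA arrays, against 3.28 to 3.48 on the 4 sh-Control RA arrays, and 1.83 to 1.89 in sh-SIRT1 vehicle, against 3.53 to 3.85 in sh-Control vehicle. All 10 stem cell markers were well above background on every array, with a mean level of 4.02 to 4.47 in sh-SIRT1 RA and 4.35 to 4.83 in sh-Control RA, against 4.76 to 4.80 in sh-SIRT1 vehicle and 4.83 to 4.92 in sh-Control vehicle. Of them 6 were called lower and 1 higher under RA in sh-SIRT1 cells, where 35.3% of all genes were called lower. In sh-Control cells 4 were called lower and 1 higher, where 27.2% of all genes were called lower. Between the hairpins under RA 4 were called lower and 0 higher, where 11.7% of all genes were called lower. The mean level of 10 endoderm markers was -0.65 to 0.26 in sh-SIRT1 RA and -1.33 to 2.16 in sh-Control RA, against -3.77 to -3.40 in sh-SIRT1 vehicle and -3.03 to -2.92 in sh-Control vehicle. That of the 8 tested of 10 fibroblast markers was -0.36 to 0.81 in sh-SIRT1 RA and -1.46 to 0.98 in sh-Control RA, against -3.18 to -2.74 in sh-SIRT1 vehicle and -2.51 to -2.01 in sh-Control vehicle. The 5 markers of two-cell-like cells (Zscan4c, Tcstv1, Tcstv3, Usp17la and Zfp352) had a mean level of 2.78 to 4.13 in sh-SIRT1 RA and 4.24 to 4.84 in sh-Control RA, against -4.41 to -2.19 in sh-SIRT1 vehicle and -4.40 to -3.14 in sh-Control vehicle. All 5 were well above background on every RA array, against 4 on each sh-Control vehicle array and 4 to 5 on the sh-SIRT1 vehicle arrays. A marker can thus have passed the filter through the RA groups only, so no count of calls for RA against vehicle is drawn from them. Between the hairpins under RA 1 was called lower, where 11.7% of all genes were, and their median difference was -0.89. The part of all these markers in the results below was not tested, and in RNA of whole cultures fewer cells of a type and less RNA per cell cannot be told apart. The mean level of 3 Y-linked genes (Ddx3y, Eif2s3y and Uty) was -5.85, -6.16 and -6.10 on sh-Control RA arrays 2, 3 and 4, against -0.96 on sh-Control RA array 1 and -1.29 to -0.10 over the 12 arrays of the other groups. Results of the 8 genes that use the sh-Control RA group are therefore given with all 4 arrays and with array 1 alone. Among the sh-SIRT1 RA arrays, 1 and 2 differed from each other less (SD of the log2 difference over genes 0.324) than from arrays 3 to 6 (0.528 to 0.616), and counts are also given with arrays 3 to 6 only. For sh-Control RA arrays 3 and 4 this SD was 0.214, against 0.633 to 0.736 for the other pairs of that group. For vehicle arrays 2 and 3 it was 0.293 in sh-SIRT1 and 0.321 in sh-Control cells, against 0.517 to 0.556 for the other vehicle pairs. If such arrays are duplicates, the groups hold fewer separate cultures than arrays.

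Against vehicle, sh-SIRT1 cells given RA had less mRNA of Nampt, Naprt and Qprt. Naprt and Qprt were lower under RA in sh-Control cells too. These enzymes join a phosphoribosyl group to nicotinamide, nicotinic acid and quinolinate. In sh-SIRT1 cells 5 of the 8 genes passed the test, all lower under RA: Nampt, Naprt, Qprt, Parp1 and Parp2. There 58.2% of all genes tested passed, 23.0% higher and 35.3% lower. In sh-Control cells 2 of 8 passed, Naprt and Qprt, both lower, where 46.8% of all genes passed, 19.7% higher and 27.2% lower. Between sh-SIRT1 and sh-Control cells under RA, 4 of 8 passed, Qprt higher and Nampt, Nadsyn1 and Parp1 lower, where 20.3% of all genes passed, 8.58% higher and 11.7% lower. In vehicle 2 of 8 passed, Nmnat1 and Qprt, both higher in sh-SIRT1 cells, where 8.62% of all genes passed, 4.40% higher and 4.21% lower. With adjusted p under 0.05 in limma as the threshold, the share of the 8 genes called in either direction was near that of all genes for RA in sh-SIRT1 cells and below it in sh-Control cells. The share called lower in sh-SIRT1 cells was above that of all genes, as were the shares called between the hairpins. Each was counted with no test, over 8 genes chosen with earlier results of these data known.

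The groups compared did not overlap for 5 of the 8 genes in the RA comparison of sh-SIRT1 cells (57.7% of all genes), for 3 in that of sh-Control cells (47.6%), for 2 between the hairpins under RA (15.4%) and for 4 between them in vehicle (36.0%). The median log2 difference of the 8 genes was -0.56, -0.22, -0.33 and 0.01 in that order, beside -0.13, -0.14, -0.04 and -0.01 for all genes. With sh-SIRT1 RA arrays 3 to 6 only, the counts of called members were 5, 3, 5 and 2 in that order, where 57.4%, 49.0%, 22.9% and 9.89% of all genes were called. With sh-Control RA array 1 alone they were 5, 4, 1 and 1, where 57.9%, 36.7%, 10.9% and 11.7% of all genes were. Array 1 alone has no spread of its own and is assumed to vary like the other groups. The scale bears on direction here: with the array median in place of the 75th percentile, the median of all genes under RA was -0.42 in sh-SIRT1 cells and -0.29 in sh-Control cells, and 24.2% in place of 39.5% and 29.3% in place of 42.0% of the genes called were higher. In vehicle that scale put 72.4% in place of 51.1% of the called genes higher in sh-SIRT1 cells. For RA in sh-SIRT1 cells the array median called 7 of the 8 genes, all lower, and quantile normalization called 4.

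**Figure D1:**
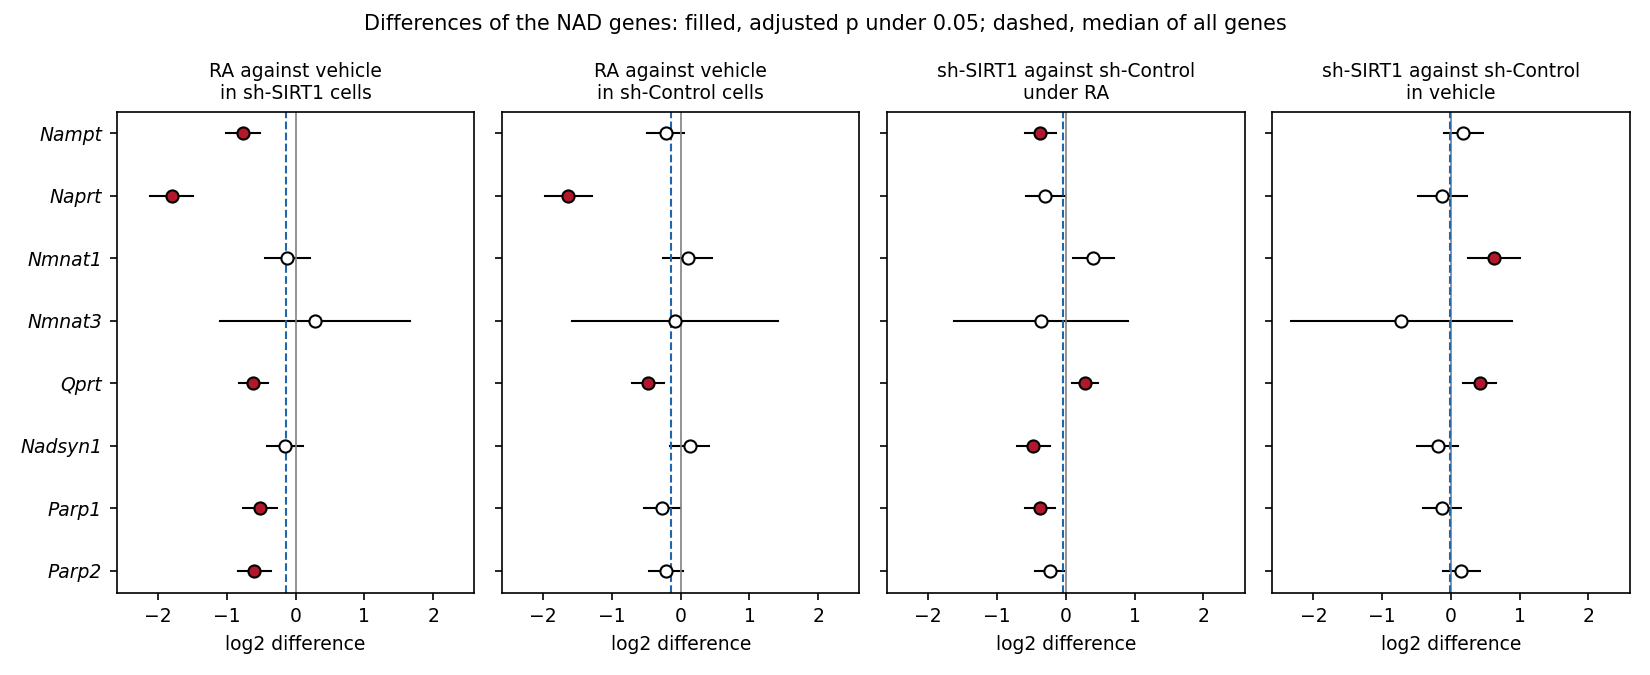
Log2 difference of the 8 genes in 4 comparisons (x axis, in log2 units), with bars for the 95% confidence interval of each difference (not adjusted for many genes), filled points where the adjusted p was under 0.05 and a dashed line at the median of all genes. Naprt stands at -1.80 and -1.63 in the RA comparisons, far from the other 7 genes, and the bars of Nmnat3 span more than those of any other gene.

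Of the genes called lower under RA in sh-SIRT1 cells, the promoter table of RefSeq (GRCm38.p6) held Nampt, Qprt, Parp1 and Parp2. The 250 bases before each start are shown because these 4 genes moved the same way, with capitals on 3 motifs searched on both strands: the GC box GGGCGG, the E-box CACGTG and AGGTCA, the half-site bound by retinoic acid receptors.
Nampt, chr12:32820085-32820334, plus strand: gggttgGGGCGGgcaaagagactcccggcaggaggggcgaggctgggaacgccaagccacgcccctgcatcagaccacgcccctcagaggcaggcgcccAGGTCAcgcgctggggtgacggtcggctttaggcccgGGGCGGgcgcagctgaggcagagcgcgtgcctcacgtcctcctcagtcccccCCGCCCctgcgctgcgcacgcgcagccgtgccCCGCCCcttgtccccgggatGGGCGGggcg
Qprt, chr7:127122030-127122279, minus strand: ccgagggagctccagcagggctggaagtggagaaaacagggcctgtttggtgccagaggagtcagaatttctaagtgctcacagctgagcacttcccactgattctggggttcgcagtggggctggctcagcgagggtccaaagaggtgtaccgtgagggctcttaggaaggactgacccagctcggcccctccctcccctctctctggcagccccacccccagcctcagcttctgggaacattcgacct
Parp1, chr1:180568641-180568890, plus strand: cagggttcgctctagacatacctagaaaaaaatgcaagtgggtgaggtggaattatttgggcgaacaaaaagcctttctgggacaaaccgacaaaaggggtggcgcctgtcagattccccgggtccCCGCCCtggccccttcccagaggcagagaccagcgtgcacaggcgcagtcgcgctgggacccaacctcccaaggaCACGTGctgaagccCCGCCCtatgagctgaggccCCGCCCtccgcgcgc
Parp2, chr14:50807666-50807915, plus strand: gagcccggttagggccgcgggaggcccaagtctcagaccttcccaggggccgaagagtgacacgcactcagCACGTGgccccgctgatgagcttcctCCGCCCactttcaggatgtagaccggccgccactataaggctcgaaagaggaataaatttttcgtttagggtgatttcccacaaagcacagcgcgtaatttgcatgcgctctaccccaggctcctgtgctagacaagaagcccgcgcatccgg
The Nampt promoter held 5 GC boxes and 1 AGGTCA, in 75.6% G and C, where the median of 32817 promoters was 52.4%. The Parp1 promoter held 3 GC boxes and 1 E-box, the Parp2 promoter 1 of each, and the Qprt promoter none of the 3 motifs. Members not called lower under RA in sh-SIRT1 cells held GC boxes too: 1 in each Nmnat1 promoter, 2 in that of Nmnat3 and 2 in that of Nadsyn1. This motif thus did not set the genes called lower apart from the other members. GGGCGG was found in 32.7% of all promoters of this length, CACGTG in 6.02% and AGGTCA in 14.0%. The full retinoic acid elements DR5 and DR2, which repeat the half-site with a spacer, were in 3 promoters each of all 32817 and in none of the 7 members in the table. These are matches of letters in a window and say nothing of binding.

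Nampt, the rate-limiting enzyme of salvage, was measured by a probe at chr12:30690185-30690244 (plus strand, mm7, the build of the file headers) that stood for the gene and by a second probe at chr12:30678775-30678834. Whether a probe lies in a coding exon or an untranslated region was not analysed here. Its level had a lowest value of 2.19, a median of 2.34 and a highest value of 2.65 in sh-SIRT1 RA. The single arrays of sh-SIRT1 vehicle were at 3.07, 3.23 and 3.20. Every RA array lay below every vehicle array of these cells. The difference was -0.77 ± 0.12 (SE, adjusted p 5.99e-05), 1.71-fold lower under RA, and within slides 1, 2 and 3 it was -1.05, -0.68 and -0.77. In sh-Control cells the level was 2.89, 2.94, 2.63 and 2.61 under RA, against 3.04, 3.03 and 2.89 in vehicle. These groups overlapped, since array 2 lay above the lowest vehicle array while arrays 3 and 4 lay below them all. The difference of -0.22 ± 0.12 did not pass (adjusted p 0.164), and with array 1 alone it was -0.10. With the array median as the scale it was -0.37 and passed (adjusted p 0.0417). Between the hairpins under RA, Nampt was lower in sh-SIRT1 cells, at 2.40 ± 0.19 (SD, n = 6) against 2.77 ± 0.17 (n = 4), a difference of -0.37 ± 0.11 (adjusted p 0.0232). The call was lost with the array median (-0.37, adjusted p 0.0535), with normexp (-0.34, 0.199), with only the arrays compared (-0.37, 0.0591), without sh-Control RA array 1 (-0.33, 0.0527), without sh-Control RA array 2 (-0.31, 0.0641), without sh-SIRT1 RA array 4 (-0.33, 0.0517) and with sh-Control RA array 1 alone (-0.49, adjusted p 0.0877), while within slides 1, 2 and 4 the difference was -0.45, -0.38 and -0.42. In vehicle Nampt was at 3.17 ± 0.09 in sh-SIRT1 and 2.99 ± 0.08 in sh-Control cells (SD, n = 3 each), and the difference of 0.18 ± 0.13 did not pass. The second probe gave -0.79 ± 0.15 for RA in sh-SIRT1 cells and -0.43 ± 0.13 between the hairpins under RA, both called in a fit over probes (adjusted p 3.48e-04 and 0.0329).

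Naprt, which starts the Preiss-Handler route, had the largest RA difference of the 8 genes in both lines. Its single probe lies at chr15:75973518-75973577 (minus strand, mm7). In sh-SIRT1 cells its level under RA had a lowest value of 1.13, a median of 1.22 and a highest value of 1.39, against single arrays at 3.41, 2.89 and 2.82 in vehicle. In sh-Control cells it was 1.17, 1.56, 1.69 and 1.71 under RA, against 3.38, 3.06 and 3.05 in vehicle. In neither line did the RA arrays reach the vehicle arrays: the gap between them was 1.43 log2 units in sh-SIRT1 cells and 1.34 in sh-Control cells. Naprt fell 3.49-fold in sh-SIRT1 cells (log2 difference -1.80 ± 0.14, adjusted p 2.52e-07) and 3.1-fold in sh-Control cells (-1.63 ± 0.16, adjusted p 2.21e-06). Within slides the difference was -1.62, -2.27 and -1.59 in sh-SIRT1 cells (slides 1, 2 and 3) and -1.69 and -1.88 in sh-Control cells (slides 1 and 4), and with sh-Control RA array 1 alone it was -2.0 (adjusted p 8.86e-05). Between the hairpins the difference was -0.30 ± 0.13 under RA (adjusted p 0.132) and -0.13 ± 0.17 in vehicle (0.703), so neither passed. Under RA it passed with the replicate number as a block (-0.31, adjusted p 0.0444) and without sh-Control RA array 1 (-0.42, 0.0279), while array 1 alone gave 0.07 (0.859). Within slides 1, 2 and 4 it was -0.42, -0.50 and 0.11.

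Qprt, which brings quinolinate from the tryptophan route into NAD synthesis, differed by hairpin and by RA in opposite directions. Its single probe lies at chr7:123204519-123204578 (minus strand, mm7). In sh-SIRT1 cells the level under RA had a lowest value of 0.93, a median of 1.01 and a highest value of 1.45, against single arrays at 1.74, 1.67 and 1.67 in vehicle. In sh-Control cells it was 0.76, 0.82, 0.82 and 0.79 under RA, against 1.21, 1.31 and 1.30 in vehicle. Neither pair of groups overlapped, and the sh-SIRT1 RA array at 1.45 was array 1, apart from the other 5. Qprt fell 1.53-fold under RA in sh-SIRT1 cells (log2 difference -0.62 ± 0.10, adjusted p 1.07e-04) and 1.39-fold in sh-Control cells (-0.48 ± 0.11, adjusted p 0.00231). The within-slide differences were -0.71, -0.64 and -0.72 in sh-SIRT1 cells (slides 1, 2 and 3) and -0.39 and -0.54 in sh-Control cells (slides 1 and 4). Between the hairpins the within-slide differences were 0.46 and 0.36 in vehicle (slides 1 and 3) and 0.14, 0.29 and 0.49 under RA (slides 1, 2 and 4), all higher in sh-SIRT1 cells.

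The calls of Qprt between the hairpins lay near the threshold. In vehicle Qprt was at 1.69 ± 0.04 in sh-SIRT1 and 1.28 ± 0.05 in sh-Control cells (SD, n = 3 each), without overlap, a 1.33-fold difference (0.42 ± 0.11, adjusted p 0.036). Under RA it was at 1.07 ± 0.19 (n = 6) and 0.80 ± 0.03 (n = 4), again without overlap (0.28 ± 0.09, adjusted p 0.0426). With the replicate number as a block neither passed (adjusted p 0.0552 in vehicle and 0.0914 under RA), and with slide as a block neither passed (0.0577 and 0.0581). The sizes with these blocks were 0.42 and 0.44 in vehicle and 0.28 and 0.30 under RA. Leaving out any of the 6 vehicle arrays, or sh-SIRT1 RA array 5 or 6, ended the vehicle call (adjusted p 0.0504 to 0.106), while the difference stayed between 0.38 and 0.43 without any single array. The RA call was lost on leaving out any of 11 of the 16 arrays: every sh-Control RA array, sh-SIRT1 RA array 5 or 6, sh-Control vehicle array 2 or 3, or any sh-SIRT1 vehicle array (0.0502 to 0.093). Its size was 0.20 to 0.31 without any single array, and 0.31 (adjusted p 0.253) with sh-Control RA array 1 alone. Both calls were also lost with normexp (0.41 in vehicle and 0.25 under RA) and without the filter (0.42 and 0.28), that in vehicle with quantile normalization (0.35) and with sh-Control RA array 1 alone (0.42), and that under RA with the array median (0.28) and with only the arrays compared (0.28). For RA in sh-Control cells array 1 alone gave -0.51 (adjusted p 0.0409).

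Nmnat1, the nuclear enzyme that joins NMN to the adenylyl group of ATP, differed between the hairpins in vehicle. Its probes lie at chr4:148458249-148458308, which stood for the gene, and chr4:148458168-148458227 (minus strand, mm7). Its level was 3.01, 3.05 and 3.04 in sh-SIRT1 vehicle, against 2.43, 2.38 and 2.42 in sh-Control vehicle. The arrays of a group lay close together and the groups were far apart, while the test's estimate of spread comes from all 16 arrays. The difference of 0.62 ± 0.18, 1.54-fold higher in sh-SIRT1 cells, had an adjusted p of 0.0413, and within slides 1 and 3 it was 0.62 and 0.65. The call was lost with slide as a block (0.54, adjusted p 0.104), with quantile normalization (0.56, 0.0791), with normexp (0.62, 0.0993), without the filter (0.62, 0.0738), on leaving out any of the 6 vehicle arrays (0.61 to 0.63, adjusted p 0.0647 to 0.117) and on leaving out any of sh-SIRT1 RA arrays 2 to 6 (0.62, adjusted p 0.0516 to 0.0562), so that its size changed little, while the replicate block kept it.

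Under RA, Nmnat1 had a lowest value of 2.69, a median of 2.96 and a highest value of 3.04 in sh-SIRT1 cells, against 2.03, 2.32, 2.82 and 2.87 in sh-Control cells. The groups overlapped, because sh-Control RA arrays 3 and 4 lay among the sh-SIRT1 arrays and arrays 1 and 2 below them all. The difference of 0.40 ± 0.14 did not pass (adjusted p 0.0561). It passed with quantile normalization (0.46, adjusted p 0.038), with the replicate number as a block (0.37, adjusted p 0.0284), with sh-Control RA array 1 alone (0.88, 0.00209), with sh-SIRT1 RA arrays 3 to 6 only (0.48, 0.0421) and without sh-Control RA array 3 (0.50, 0.0329), sh-Control RA array 4 (0.52, 0.0233) or sh-SIRT1 RA array 1 (0.44, 0.042). Within slides 1, 2 and 4 it was 0.21, 0.35 and 0.80. RA against vehicle gave -0.12 ± 0.15 in sh-SIRT1 cells and 0.10 ± 0.16 in sh-Control cells, neither called. With the array median as the scale the first of these was -0.41 and was called (adjusted p 0.0386). Read from sh-Control RA array 1 alone, the second of these became -0.38 (adjusted p 0.0447), which turns its sign. The second probe gave 0.68 ± 0.17 in vehicle (adjusted p 0.0227 in the fit over probes) and followed the first over the 16 arrays (Pearson's r 0.98, a description).

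Nmnat3, the mitochondrial enzyme of this step, had no called difference. Its single probe (chr9:98052872-98052931, plus strand, mm7) was well above background on 15 of 16 arrays. Its level had a lowest value of -5.44, a median of -4.08 and a highest value of -3.60 in sh-SIRT1 RA, and was -3.12, -6.48, -3.24 and -3.28 in sh-Control RA. In vehicle it was -4.69, -4.57 and -4.74 in sh-SIRT1 cells, against -4.58, -3.74 and -3.53 in sh-Control cells. The array at -6.48, sh-Control RA array 2, was the one not well above background, and all 4 pairs of groups overlapped. The SE was 0.59 to 0.75 in the 4 comparisons, above that of every other member. Without sh-Control RA array 2 the hairpin difference under RA was -1.17 (adjusted p 0.0444), while with all arrays it was -0.36 ± 0.59 (0.72) and with sh-Control RA array 1 alone -1.27 (0.232).

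Nadsyn1, which uses glutamine to turn the nicotinic acid dinucleotide into NAD, was lower in sh-SIRT1 cells under RA. Its probes, at chr7:140223169-140223228 and chr7:140223152-140223211 (minus strand, mm7), share 43 of 60 bases and so are no independent pair. The level had a lowest value of -0.08, a median of 0.09 and a highest value of 0.28 in sh-SIRT1 RA, against 0.58, 0.24, 0.73 and 0.73 in sh-Control RA. Only sh-Control RA array 2 reached into the range of the sh-SIRT1 arrays. The difference of -0.47 ± 0.11 was 1.39-fold (adjusted p 0.00868), and within slides 1, 2 and 4 it was -0.66, -0.37 and -0.47. With sh-Control RA array 1 alone its size was -0.48 and it did not pass (adjusted p 0.0821), while leaving out any single array kept the call. In vehicle the level was 0.06, 0.37 and 0.32 in sh-SIRT1 cells, against 0.26, 0.53 and 0.53 in sh-Control cells, which overlapped (-0.19 ± 0.14, adjusted p 0.447). RA against vehicle gave -0.15 ± 0.12 in sh-SIRT1 cells and 0.13 ± 0.13 in sh-Control cells (0.14 with array 1 alone), and neither passed. With the array median as the scale the difference in sh-SIRT1 cells was -0.44 and passed (adjusted p 0.00253).

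**Figure D2:**
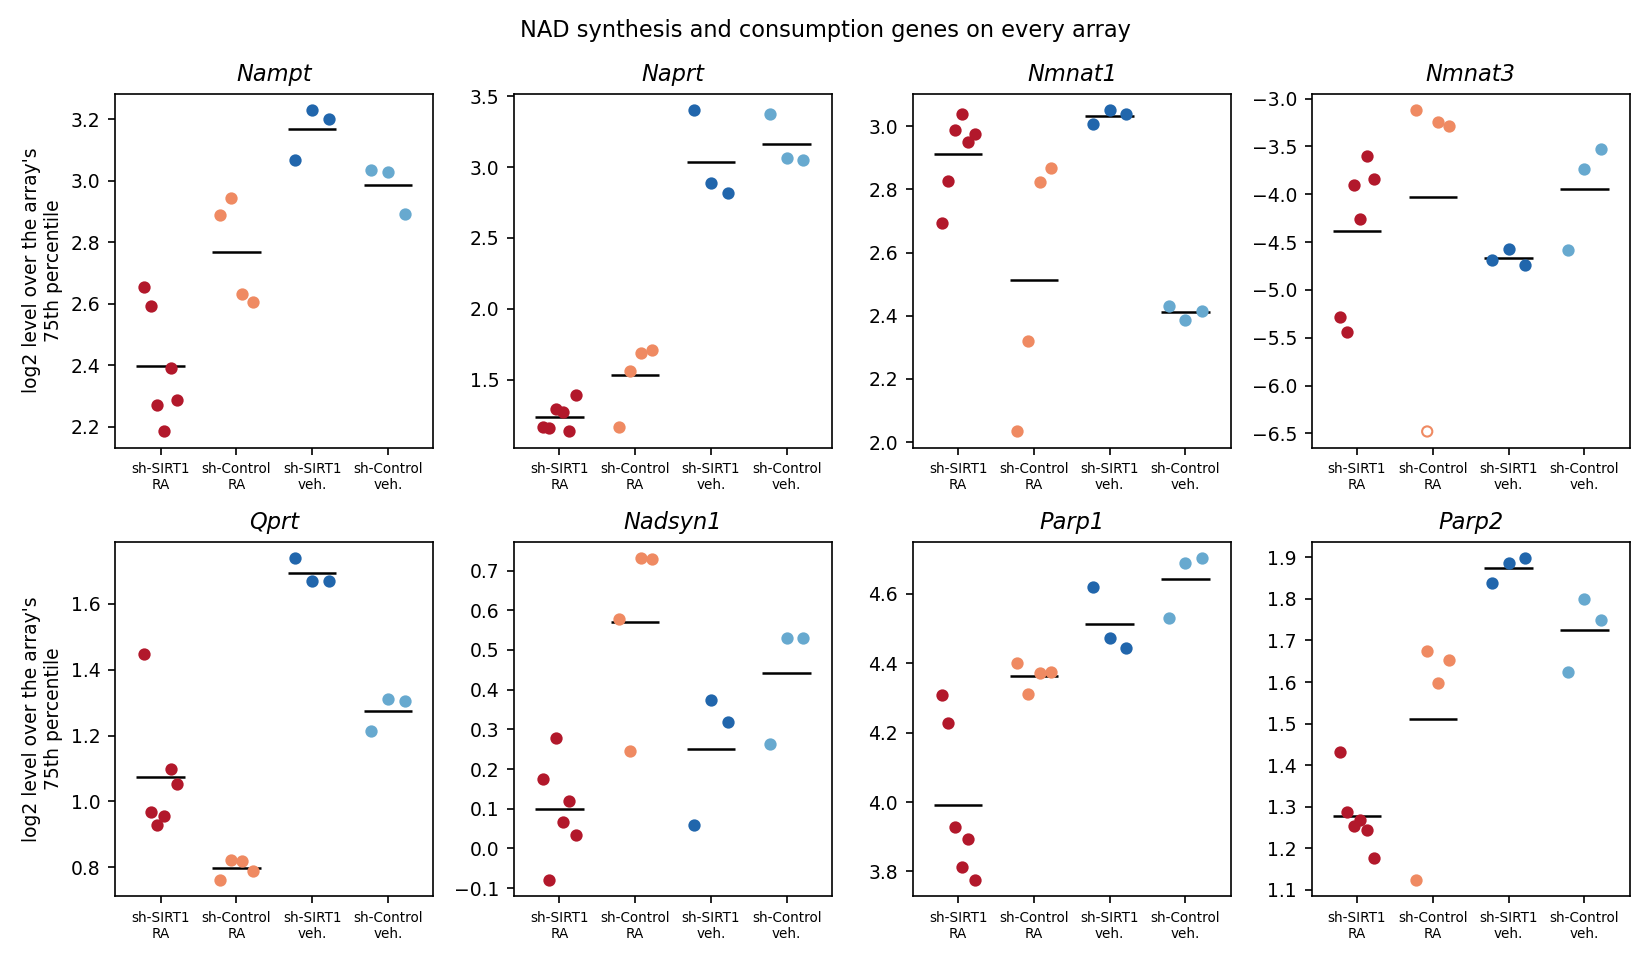
Level of each gene (y axis, log2 over the array's 75th percentile, with its own scale in each panel) on the 6 sh-SIRT1 RA, 4 sh-Control RA, 3 sh-SIRT1 vehicle and 3 sh-Control vehicle arrays, 1 point an array, a line at the group mean, and an open point where the probe was not well above background. Naprt separates RA from vehicle in both lines, Nmnat1 separates the hairpins in vehicle, and sh-Control RA array 1 stands at 1.12 for Parp2, below the other 3 arrays of its group.

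Parp1 and Parp2, the enzymes that answer DNA breaks with poly(ADP-ribose), were each read by a pair of probes whose span on the genome is longer than their 60 bases, so that each probe joins stretches that are separate on the genome. They are shown because the Parp1 pair overlaps, with the 40 shared bases in capitals, and the Parp2 pair does not.
Parp1 probe that stood for the gene, chr1:180580285-180580583, plus strand, mm7: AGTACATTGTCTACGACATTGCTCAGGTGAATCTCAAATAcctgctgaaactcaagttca
Parp1 second probe, chr1:180580265-180580563, plus strand, mm7: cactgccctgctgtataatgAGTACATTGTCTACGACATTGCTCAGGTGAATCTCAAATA
Parp2 probe that stood for the gene, chr14:46153356-46153587, plus strand, mm7: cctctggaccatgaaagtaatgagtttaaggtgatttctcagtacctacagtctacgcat
Parp2 second probe, chr14:46153142-46153281, plus strand, mm7: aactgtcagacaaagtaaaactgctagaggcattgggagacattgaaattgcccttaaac
In sh-SIRT1 cells the level of Parp1 under RA had a lowest value of 3.78, a median of 3.91 and a highest value of 4.31, against single arrays at 4.62, 4.47 and 4.44 in vehicle. Every RA array lay below every vehicle array, with arrays 1 and 2 nearest to them. The difference was -0.52 ± 0.11 (adjusted p 0.00131), 1.43-fold lower, and -0.66, -0.72 and -0.37 within slides 1, 2 and 3. Quantile normalization ended this call (-0.16, adjusted p 0.201). In sh-Control cells Parp1 was at 4.4, 4.31, 4.37 and 4.37 under RA, against 4.53, 4.69 and 4.70 in vehicle. These groups did not overlap, but the difference of -0.28 ± 0.12 did not pass (adjusted p 0.0782), and it passed with the array median as the scale (-0.43, 0.0168), with sh-SIRT1 RA arrays 3 to 6 only (-0.28, 0.0107) and without sh-SIRT1 RA array 1 (-0.28, 0.0414), while array 1 of sh-Control RA alone gave -0.24 (0.394).

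Between the hairpins under RA, Parp1 was lower in sh-SIRT1 cells, at 3.99 ± 0.22 (SD, n = 6) against 4.36 ± 0.04 (n = 4), a difference of -0.37 ± 0.10 (adjusted p 0.0212). The groups were apart by 0.0030 log2 units with this probe and overlapped with the second. With the replicate block this was -0.30 (adjusted p 0.0808). The call was also lost with normexp (-0.37, 0.185), with only the arrays compared (-0.37, 0.0533), without sh-Control RA array 3 or 4 (both -0.37, 0.0541 and 0.0539) and with sh-Control RA array 1 alone (-0.41, 0.201), and within slides 1, 2 and 4 the difference was -0.56, -0.45 and -0.36. In vehicle Parp1 was at 4.51 ± 0.09 in sh-SIRT1 and 4.64 ± 0.10 in sh-Control cells (n = 3 each), and the difference of -0.13 ± 0.13 did not pass. The second probe gave -0.58 ± 0.13 for RA in sh-SIRT1 cells and -0.37 ± 0.12 between the hairpins under RA.

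Parp2 had a lowest level of 1.18, a median of 1.26 and a highest level of 1.43 in sh-SIRT1 RA, against single arrays at 1.84, 1.89 and 1.90 in sh-SIRT1 vehicle. The groups lay well apart. Parp2 fell 1.51-fold (log2 difference -0.60 ± 0.11, adjusted p 3.27e-04), and the differences within slides 1, 2 and 3 were -0.62, -0.59 and -0.63. In sh-Control cells it was at 1.12, 1.68, 1.60 and 1.65 under RA, against 1.62, 1.80 and 1.75 in vehicle. Array 1 stood well below the vehicle arrays, the other 3 lay near the lowest of them, and the difference of -0.21 ± 0.12 did not pass (adjusted p 0.152). With the array median as the scale this difference passed. With array 1 alone it was -0.60 (adjusted p 0.00271), the size seen in sh-SIRT1 cells. Between the hairpins under RA the difference was -0.24 ± 0.10 (adjusted p 0.114) with all arrays, -0.36 (0.0025) without sh-Control RA array 1 and 0.15 (0.403) with that array alone, and within slides 1, 2 and 4 it was -0.33, -0.42 and 0.18. The second Parp2 probe, which shares no base with the first, gave -0.59 ± 0.12 for RA in sh-SIRT1 cells and 1.06, 1.59, 1.60 and 1.64 on the 4 sh-Control RA arrays, again with array 1 lowest.

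**Figure D3:**
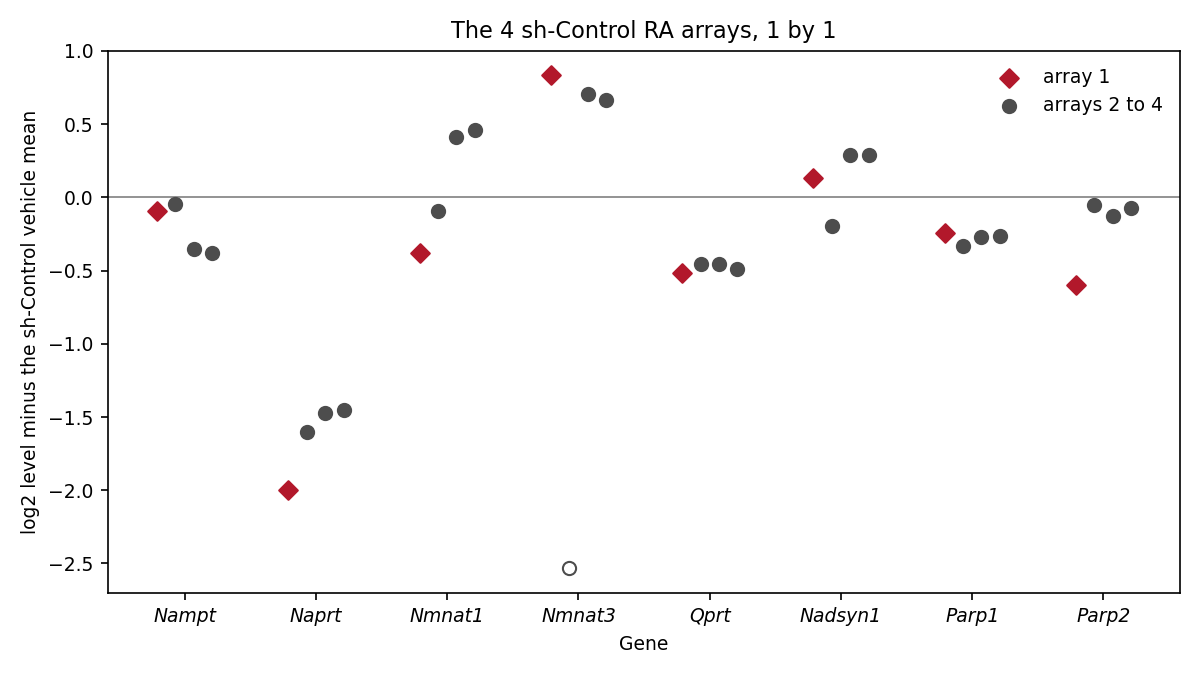
Level of each gene on each of the 4 sh-Control RA arrays minus the mean of the 3 sh-Control vehicle arrays (y axis, log2 units), with array 1 as a diamond, arrays 2 to 4 as circles and an open circle where the probe was not well above background. Array 1 lies lowest for Naprt (-2.0), Nmnat1 (-0.38), Parp2 (-0.60) and Qprt (-0.51), and Qprt lies between -0.51 and -0.46 on all 4 arrays.

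Whether RA acted differently in the lines was tested as the RA effect in sh-SIRT1 cells minus that in sh-Control cells. With limma, 0 of the 8 genes passed this test, where 3.59% of all genes did (1.71% positive and 1.88% negative), and 2 had an unadjusted p under 0.05, Nampt and Parp2. Nampt had the RA effects -0.77 in sh-SIRT1 and -0.22 in sh-Control cells and a difference of -0.55 ± 0.17 (adjusted p 0.0817, 95% interval -0.92 to -0.19 before adjustment). It passed with the replicate number as a block (-0.52, adjusted p 0.0331), with sh-SIRT1 RA arrays 3 to 6 only (-0.67, 0.0208) and without sh-SIRT1 RA array 1 (-0.60, 0.0485), and with sh-Control RA array 1 alone it was -0.67 (0.145). Parp2 had the RA effects -0.60 in sh-SIRT1 and -0.21 in sh-Control cells and a difference of -0.38 ± 0.16 (adjusted p 0.195). Without sh-Control RA array 1 this was -0.51 (0.00971), and with array 1 alone it was 0.00 (0.993). For Naprt the difference of the effects was -0.17 ± 0.21 and for Qprt -0.14 ± 0.15, with intervals of -0.63 to 0.29 and -0.45 to 0.17, and with array 1 alone they were 0.19 and -0.10.

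The other genes of NAD metabolism were taken from 5 lists. Of the route from tryptophan 5 of 8 genes were tested. Of these only Ido2 and Afmid were well above background on every array of all 4 groups. Kynu passed the filter through sh-Control RA alone and Acmsd through sh-Control vehicle alone, so both are described with no test, and no count is drawn from the list. Ido2, an enzyme of the first step, was higher in all 4 comparisons: 0.44 ± 0.13 for RA in sh-SIRT1 cells, 0.91 ± 0.14 for RA in sh-Control cells, 0.41 ± 0.12 between the hairpins under RA and 0.88 ± 0.15 between them in vehicle. Its sign held under each scaling, but none of quantile normalization, the array median and normexp kept the call for RA in sh-SIRT1 cells. Kynu, kynureninase, had levels of -6.33 to -3.14 in sh-SIRT1 RA, against -7.88 to -4.39 in sh-SIRT1 vehicle, which overlapped, with 5 of 6 RA arrays and 1 of 3 vehicle arrays well above background. In sh-Control cells no vehicle array and all 4 RA arrays measured Kynu above background (mean -5.17 under RA, against -7.23 in vehicle). Since Kynu entered through that RA group alone, no fold or direction is drawn from these values. Ido1, which catalyses the same step as Ido2, was 0.53 ± 0.22 higher under RA in sh-SIRT1 cells, and is not compared between the lines, since it passed the filter in the sh-SIRT1 groups only. Afmid, the next enzyme of the route, was 0.65 ± 0.25 higher under RA in sh-Control cells. Acmsd, which diverts the route away from quinolinate, was above background on all 3 sh-Control vehicle arrays and on 2 of 4 sh-Control RA arrays. Since Acmsd entered through that vehicle group alone, no fold or direction is drawn for it. With sh-Control RA array 1 alone, only Ido2 for RA in sh-Control cells stayed called of the differences named here that use that group (0.74, adjusted p 0.0235). Under the normexp background correction the calls of Ido1, Ido2 and Afmid were lost.

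Of 13 genes of other steps of synthesis, transport and breakdown, 12 were tested. Of these, 10 were well above background on every array of all 4 groups. Nnmt passed the filter through sh-SIRT1 RA alone and Nmrk2 through sh-SIRT1 vehicle alone, so no count for RA against vehicle is drawn from the list. Nt5e, the cell-surface nucleotidase CD73, had levels of 0.38 to 0.95 in sh-SIRT1 RA and 0.04 to 1.91 in sh-Control RA, against -1.93 to -1.68 in sh-SIRT1 vehicle and -1.87 to -0.29 in sh-Control vehicle. It was 2.40 ± 0.36 higher under RA in sh-SIRT1 cells and 2.16 ± 0.39 higher in sh-Control cells. Nnmt, which methylates nicotinamide and so takes it out of salvage, had levels of -4.72 to -1.26 in sh-SIRT1 RA and -5.87 to -2.67 in sh-Control RA, against -6.79 to -5.17 in sh-SIRT1 vehicle and -7.41 to -4.93 in sh-Control vehicle. No test of Nnmt is given: it was well above background on all 6 sh-SIRT1 RA arrays, 3 of 4 sh-Control RA arrays and 1 of 3 vehicle arrays of each line. Slc12a8, described in mice as an NMN transporter, fell by 1.01 ± 0.18 in sh-SIRT1 cells and by 1.41 ± 0.20 in sh-Control cells. Pnp, a purine nucleoside phosphorylase that can also split nicotinamide riboside, fell by 0.96 ± 0.19 in sh-SIRT1 cells. Nudt12, a hydrolase of NADH, was 1.00 ± 0.20 higher in sh-SIRT1 than in sh-Control cells in vehicle, rose by 1.37 ± 0.19 under RA in sh-Control cells and had an RA effect of 0.11 ± 0.17 in sh-SIRT1 cells. Its RA effects differed between the lines by -1.26 ± 0.25 (adjusted p 0.0181), and with sh-Control RA array 1 alone by -0.60 (0.17). Between the hairpins under RA only Slc25a51, the mitochondrial NAD carrier, was called of the 10 genes above background in all groups (0.44 ± 0.10, adjusted p 0.00699), where 20.3% of all genes were. For RA in sh-Control cells the list also held Nmnat2, the third NMNAT enzyme, at -0.58 ± 0.15. With sh-Control RA array 1 alone, Nt5e (3.19), Slc12a8 (-1.48) and Nudt12 (0.71) stayed called for RA in sh-Control cells, while Nmnat2 (-0.55, adjusted p 0.121) and Slc25a51 between the hairpins (0.54, 0.0778) did not.

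Of 20 other genes that use NAD or handle ADP-ribose, 18 were tested. Under RA 3 were called higher and 7 lower in sh-SIRT1 cells, 3 higher and 8 lower in sh-Control cells, 10 and 11 of 18 in all, near the 58.2% of all genes in sh-SIRT1 cells and above the 46.8% in sh-Control cells. Higher in both lines were Parp4, by 1.61 ± 0.23 in sh-SIRT1 and 2.25 ± 0.25 in sh-Control cells, and Parp8, by 3.02 ± 0.33 and 1.72 ± 0.35. Lower in both were Parp14, a mono-ADP-ribosyltransferase of interferon responses (-1.56 ± 0.14 in sh-SIRT1 and -1.20 ± 0.16 in sh-Control cells), Tiparp, a target of the aryl hydrocarbon receptor (-0.79 ± 0.12 and -0.81 ± 0.13), Parp16 (-0.66 ± 0.10 and -0.56 ± 0.11) and Parg, which degrades poly(ADP-ribose) (-0.52 ± 0.08 and -0.29 ± 0.09). Between the hairpins under RA 4 were higher and 3 lower in sh-SIRT1 cells, with Parp14 at -0.94 ± 0.13, where 8.58% of all genes were higher and 11.7% lower. In vehicle 1 was higher and 2 were lower, where 4.40% of all genes were higher and 4.21% lower. Parp12 was at -1.47 ± 0.18 there (adjusted p 2.39e-04). Parp12 levels were -4.75, -4.38 and -4.50 in sh-SIRT1 vehicle, against -3.07, -3.02 and -3.12 in sh-Control vehicle, and the RA effects on it differed by 0.98 ± 0.22 (adjusted p 0.029). On sh-Control RA array 1 alone that difference was 0.58 (adjusted p 0.311), while Parp4, Parp8, Parp14, Tiparp, Parp16 and Parg stayed called for RA in sh-Control cells and Parp14 between the hairpins under RA (-0.93, adjusted p 0.0353).

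**Figure D4:**
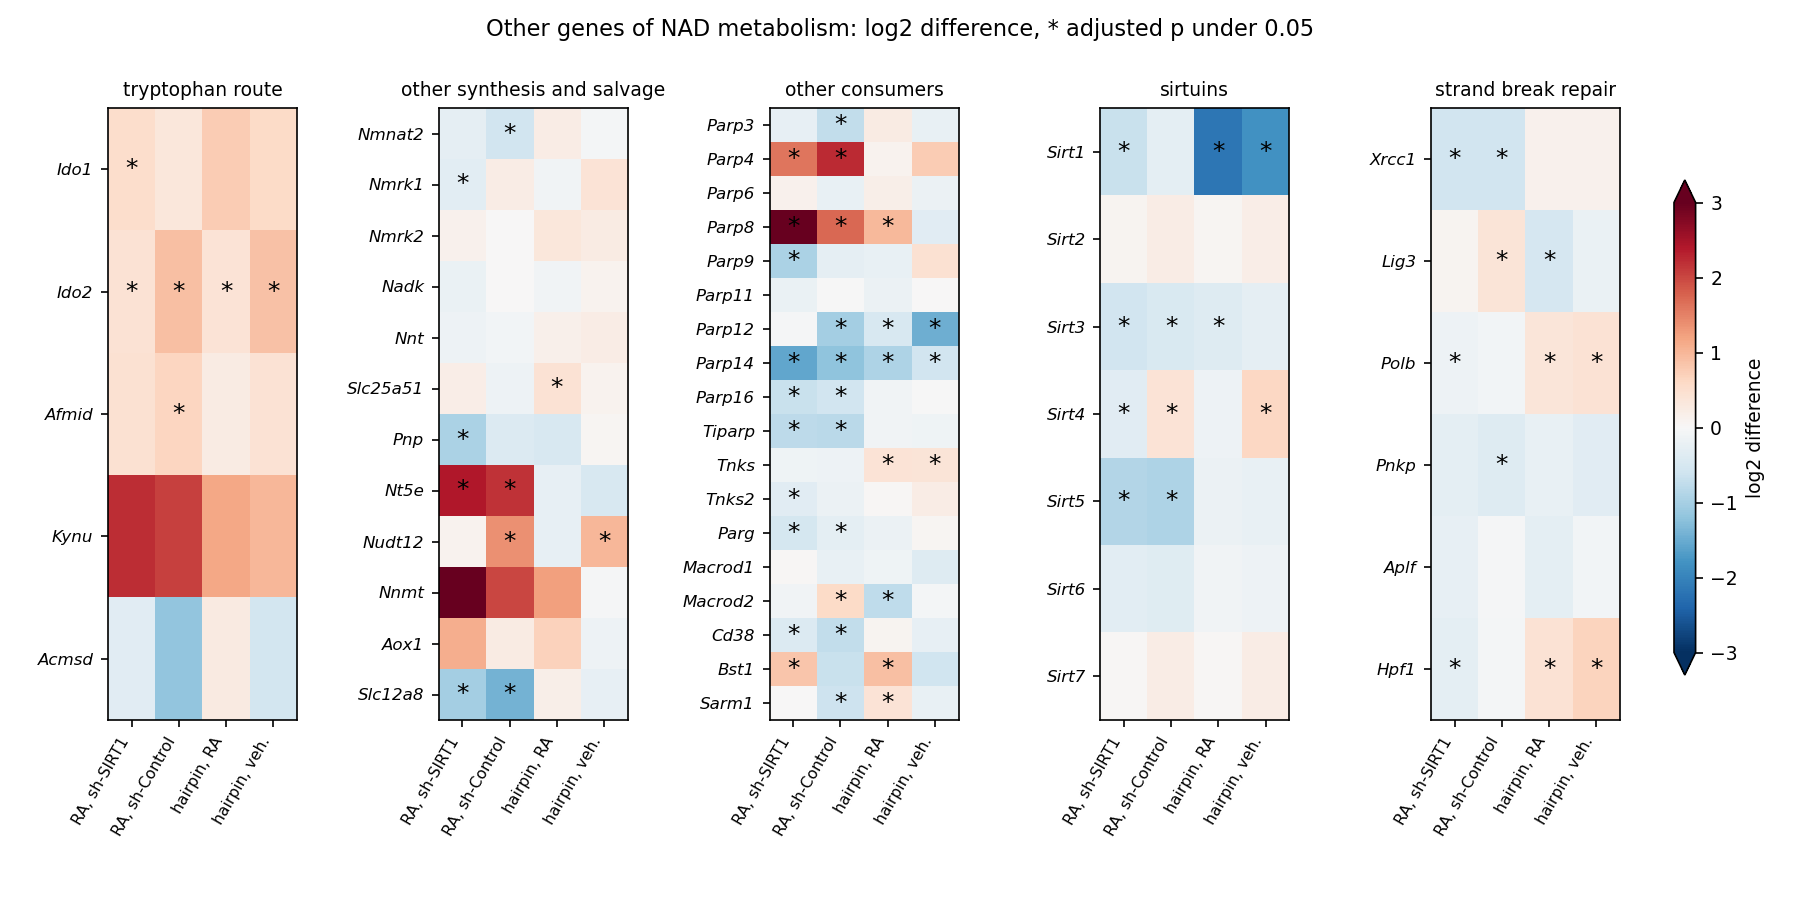
Log2 difference (colour, in log2 units, blue lower and red higher) of the tested genes of 5 lists in 4 comparisons, with a star where the adjusted p was under 0.05 and every array of both groups compared was well above background. Parp4, Parp8 and Nt5e are red in both RA columns, Parp14 and Slc12a8 blue, and the Sirt1 row is blue in the 2 hairpin columns.

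Of the 6 genes of strand break repair around Parp1, 0 were called higher and 3 lower under RA in sh-SIRT1 cells, and 1 higher and 2 lower in sh-Control cells. Between the hairpins under RA 2 were called higher and 1 lower, where 8.58% of all genes were higher and 11.7% lower. Polb, the repair polymerase, was higher in sh-SIRT1 cells by 0.43 ± 0.08 in vehicle and by 0.36 ± 0.06 under RA. Xrcc1, the repair scaffold, fell under RA by 0.58 ± 0.14 in sh-SIRT1 and by 0.56 ± 0.15 in sh-Control cells, and Lig3, its ligase partner, was 0.50 ± 0.09 lower in sh-SIRT1 than in sh-Control cells under RA. For RA in sh-SIRT1 cells, quantile normalization left 0 of the 6 called and the array median left 5 lower. Among the 7 sirtuins, the other NAD users, 0 were called higher and 4 lower under RA in sh-SIRT1 cells, and 1 higher and 2 lower in sh-Control cells. The shares of both lists called in either direction were near or below 58.2% and near 46.8%. The shares called lower in sh-SIRT1 cells were above the 35.3% of all genes, counted over 6 and 7 genes with no test. Sirt5 fell by 0.88 ± 0.10 in sh-SIRT1 and by 0.94 ± 0.11 in sh-Control cells. With sh-Control RA array 1 alone Xrcc1 (-0.86) and Sirt5 (-0.70) stayed called for RA in sh-Control cells and Polb between the hairpins (0.37), while Lig3 between the hairpins did not (-0.41, adjusted p 0.0992).

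Over the 16 arrays the members did not all vary together. Pearson's r between Nampt and Parp1 was 0.87, between Naprt and Parp2 0.83 and between Nampt and Parp2 0.80, while that between Nmnat1 and Parp1 was -0.46. These values describe arrays that share their groups and their scaling, and carry no test. Of 12133 genes well above background on all arrays, those most like Nampt were Dbf4 and Msh3 (both r 0.97), those most like Naprt were BC005624 and Tex10 (both 0.99) and those most like Qprt were Cenpk and Fmr1 (both 0.96). Nmnat1 was most like Doc2g and Scand1 (both 0.96), Nadsyn1 like Smtnl1 and Ubash3a (both 0.92), Parp1 like Tmem160 and Mrpl2 (both 0.97) and Parp2 like Ube4b and Srpk2 (both 0.96).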

How the data were processed

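RNA of 16 samples was measured on 1-colour Agilent arrays. Per the file headers, each deposited intensity is a processed signal of Feature Extraction (9.5 in the submitters' processing notes), with probe positions on mm7; the authors' value table held the same intensity on all 45018 spots of every array. Values are log2 of intensity minus the array's 75th percentile. Spots of a probe were averaged, probes well above background on all arrays of a group were kept (26375 of 41174), and the probe with the highest mean stood for a gene. Group means were fitted to all 16 arrays with limma 3.58.1 in R 4.3.3, with Benjamini-Hochberg adjustment over 18278 genes, and tested on simulated data. The number of arrays limits precision. Same-numbered arrays of the lines deviated together (r 0.36 to 0.51 in vehicle, 0.43 to 0.54 under RA), though sh-SIRT1 RA arrays 3 and 4 correlated best with another number. Slides held several groups, and all arrays were scanned on 1 day. The members and gene lists were chosen with earlier results of these data known; list genes were named by a rule fixed on size and call. Alternatives covered scaling, background correction, filter, blocks and left-out arrays.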

Additional observations from a re-analysis of the deposited data

Results flagged for a closer look

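In groups of 4 or more arrays, 4 member values stood apart from the rest of their group by Dixon's test, which flags about 1 in 20 groups by chance. Nmnat3 was at -6.48 on sh-Control RA array 2, where its probe was not well above background. Qprt was at 1.45 on sh-SIRT1 RA array 1, above the other 5 arrays. Parp2 was low on sh-Control RA array 1 with both of its probes, at 1.12 and 1.06.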

How the results depend on the processing

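Of 1171 values of the 8 genes under alternatives, 1055 kept direction and side of the threshold, 65 were no longer called, 24 became called and 27 changed sign. Of these 27 only Nmnat1 for RA in sh-Control cells with sh-Control RA array 1 alone (-0.38) was called with either setting. With that array alone Nmnat3 was 0.83 for the same comparison, Naprt 0.067 and Parp2 0.15 between the hairpins under RA, and the difference of the RA effects was 0.19 for Naprt, 0.26 for Nmnat1, -0.55 for Nmnat3 and 0.0038 for Parp2. With the array median, Naprt (0.0098) and Parp1 (0.0067) changed sign between the hairpins in vehicle, Nmnat1 (-0.054) and Nadsyn1 (-0.025) for RA in sh-Control cells and Nmnat3 (-0.0024) for RA in sh-SIRT1 cells. Quantile normalization turned Nmnat1 (0.15) and Nmnat3 (-0.050), and the replicate block over all groups Nmnat3 (-0.25), for RA in sh-SIRT1 cells. Nmnat3 for RA in sh-Control cells was 0.21 with normexp and 0.053 with slide as a fixed block, which gave 0.019 for the difference of the RA effects of Naprt, and with sh-SIRT1 RA arrays 3 to 6 only Nmnat3 was 0.13 between the hairpins under RA. Leaving out 1 array gave ranges across 0 for RA in sh-Control cells in Nmnat1 (-0.018 to 0.26) and Nmnat3 (-0.40 to 0.73), and for the difference of the RA effects in Naprt (-0.29 to 0.015) and Nmnat3 (-0.45 to 0.68). The counts of called members for RA in sh-SIRT1 cells stayed at 5 without any single array. They were 7 with the array median and 4 with quantile normalization, where 67.2% and 54.4% of all genes were called. On leaving out 1 array the counts ranged from 2 to 3 for RA in sh-Control cells and 3 to 5 between the hairpins under RA. They ranged from 0 to 2 between the hairpins in vehicle and 0 to 1 for the difference of the RA effects. Between the hairpins in vehicle 0 of 8 were called with quantile normalization, normexp, no filter or slide as a block, and 1 with sh-Control RA array 1 alone. For RA in sh-Control cells 5 were called with the array median and 4 with array 1 alone. Between the hairpins under RA 2 were called with the array median, and 1 with normexp, with only the arrays compared or with array 1 alone. For the difference of the RA effects 1 was called with sh-SIRT1 RA arrays 3 to 6 only, an alternative chosen after seeing the data. With the replicate block within treatment, 1 member was called in vehicle and 1 for the difference of the RA effects; with the block over all groups, also chosen after seeing the data, 1 was called in vehicle and 2 between the hairpins under RA. The block within treatment cannot give the RA comparisons.

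Over all genes, 1575 were called between the hairpins in vehicle, 8560 for RA in sh-Control cells, 10644 for RA in sh-SIRT1 cells, 3703 between the hairpins under RA and 657 for the difference. Leaving out 1 array gave 743 to 2231, 7142 to 8712, 9341 to 11149, 2488 to 4301 and 204 to 1876. In vehicle normexp gave 270, slide as a block 974 and the replicate block within treatment 3514. Normexp gave 4639 for RA in sh-Control cells and 1122 between the hairpins under RA, where array 1 alone gave 2126. For the difference, normexp gave 22, no filter 285, slide as a block 92, the replicate block 1655 within treatment and 185 over all groups, array 1 alone 324 and arrays 3 to 6 only 1271. The cause of these shifts was not tested.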
